A study of Arabidopsis thaliana with 15 samples.

Results

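The cysteine-rich receptor-like kinases (CRKs) of Arabidopsis thaliana are described here across untreated, abscisic acid-treated and dehydrated seedlings. The family was taken as every gene whose deposited annotation contains the words cysteine-rich RLK, which gave 36 of the 22526 genes in the tables, CRK2 to CRK42 with gaps in the numbering. The family was selected on its read-count ratios between these conditions, in which members had been seen to differ, so those ratios are given as descriptions, with no test. All libraries came from whole 14-day-old seedlings of the wild type Columbia (Col-0), which spent their last day in liquid Murashige and Skoog medium with sucrose. The control was harvested untreated before either treatment began. The ABA groups received 20 µM abscisic acid (ABA) in the liquid medium for 1 h or 3 h, and the dehydration groups lay on filter paper outside the medium for 1 h or 3 h. ABA was dissolved in methanol, no group with methanol alone is among the samples, and each treated group therefore differs from the control in time and handling as well.

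CRKs are receptor kinases of the plasma membrane. Outside the cell they carry a pair of DUF26 domains, which have a conserved spacing of cysteines. A single helix crosses the membrane, and a protein kinase lies inside. The family is known for its part in immunity, in the response to reactive oxygen species made outside the cell, and in ABA signalling, and several members start cell death when they are made in excess. ABA is the hormone that builds up when water is short. It closes stomata, and in many settings it counteracts defence that depends on salicylic acid.

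Polyadenylated RNA was sequenced with strand information in 15 libraries, 3 biological replicates per condition, and each of the 5 conditions is deposited as 1 column that merges its replicates. A difference between columns therefore has no replicate error, and conditions were not tested against each other. The 3 libraries of a condition were also sequenced in 1 pool, so condition and sequencing pool cannot be told apart. Totals lay between 163762670 and 204315702 reads per column. Levels are given as FPKM (fragments per kilobase of transcript, relative to library size), which can be compared between genes. Differences are given as ratios of CPM (read counts relative to library totals scaled by TMM), and brackets hold exact 95% intervals that take in counting error alone. A gene was called measured at a mean of at least 1 CPM over the 5 columns, which 27 of the 36 CRKs reached, and it was called higher or lower at a ratio of 2-fold or more, a log2 ratio of 1. CRK4, CRK7, CRK8, CRK20, CRK24, CRK31, CRK32, CRK37 and CRK38 stayed below that mean. Whole seedlings were sampled, so fewer cells of a type and less RNA per cell cannot be told apart.

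As a check of the labels, the ABA and dehydration genes RD29B, HAI1, NCED3 and COR15A were set against the control. All stood more than 2-fold above it in each of the 4 treated columns. This sets treated columns apart from the control, and cannot tell ABA from dehydration or 1 h from 3 h. Summed CPM of the 10 root markers was 106 in the control and 68.8 to 100 in the treated columns. That of the 7 guard cell markers was 65.0 and 52.9 to 71.9. Of these 7, SPCH, EPF1 and the gene TMM belong to the stomatal lineage before guard cells mature. The root sum hides markers that went apart: WOX5, of the root stem cell niche, was at 0.277 CPM in the control, 1.29 after dehydration 1 h and 12.2 after dehydration 3 h, 44-fold higher at the end. COBL9, EXPA7 and EXPA18, genes of root hair cells, were 2.56-fold, 2.63-fold and 2.83-fold lower after dehydration 1 h. The guard cell sum likewise hides MYB60, 2.57-fold and 4.32-fold below the control after 1 h and 3 h of ABA. KAT1 was 1.57-fold above the control after ABA 3 h. All guard cell markers except MYB60 were within 2-fold of the control in each treated column. The 5 leaf markers summed to 16900 CPM in the control and to 7690 to 11900 CPM after the treatments, and no marker of the 3 lists was at 0 in any column. The part of these shifts in the values below was not tested.

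The CRKs ranged over nearly 3 orders of magnitude in level. CRK10, CRK29 and CRK40 had the highest mean levels, 30.9, 28.6 and 26.1 FPKM over the 5 columns, and CRK37, CRK24 and CRK32 the lowest, 0.0391, 0.165 and 0.215 FPKM. Summed over the 36 genes, the family stood at 259 FPKM in the control, 217 with 1 h of ABA, 170 with 3 h of ABA, 427 with 1 h of dehydration and 310 with 3 h of dehydration. The highest sum, after dehydration 1 h, was 1.64-fold above the control, and the lowest, after ABA 3 h, was 1.52-fold below it. A few genes carried much of this. CRK29 made up 16.3% of the summed FPKM in the control and 3.89% after ABA 3 h, whereas CRK10 made up 8.88% in the control and 14.6% after dehydration 1 h. With the 5 genes that were highest after dehydration 1 h left out (CRK10, CRK29, CRK19, CRK40 and CRK11), the other 31 summed to 138 FPKM in the control, 132 and 110 after 1 h and 3 h of ABA, and 187 and 170 after 1 h and 3 h of dehydration, which kept the same order as the whole family.

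**Figure D1:**
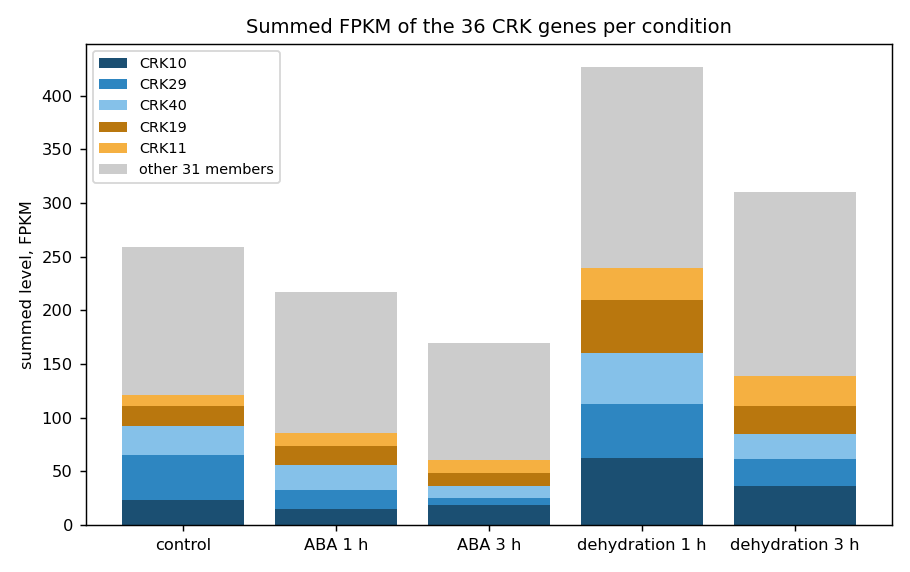
Summed FPKM of the 36 CRK genes in each of the 5 combined columns, with CRK10, CRK29, CRK40, CRK19 and CRK11 stacked in colour, the other 31 genes in grey, and no error bars because each column combines its replicates. The bar after dehydration 1 h (427 FPKM) is the highest and the bar after ABA 3 h (170 FPKM) the lowest.

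Where the single genes peaked was counted for the CRKs alone, with no count over all genes to set beside it. By CPM, 16 CRKs were highest at 1 h of dehydration, 8 at 1 h of ABA, 5 at 3 h of dehydration, 4 in the control and 3 at 3 h of ABA. The lowest value lay in the control for 16 genes and after ABA 3 h for 15. CRK25, CRK26, CRK27 and CRK30 were the 4 genes highest in untreated seedlings.

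**Figure D2:**
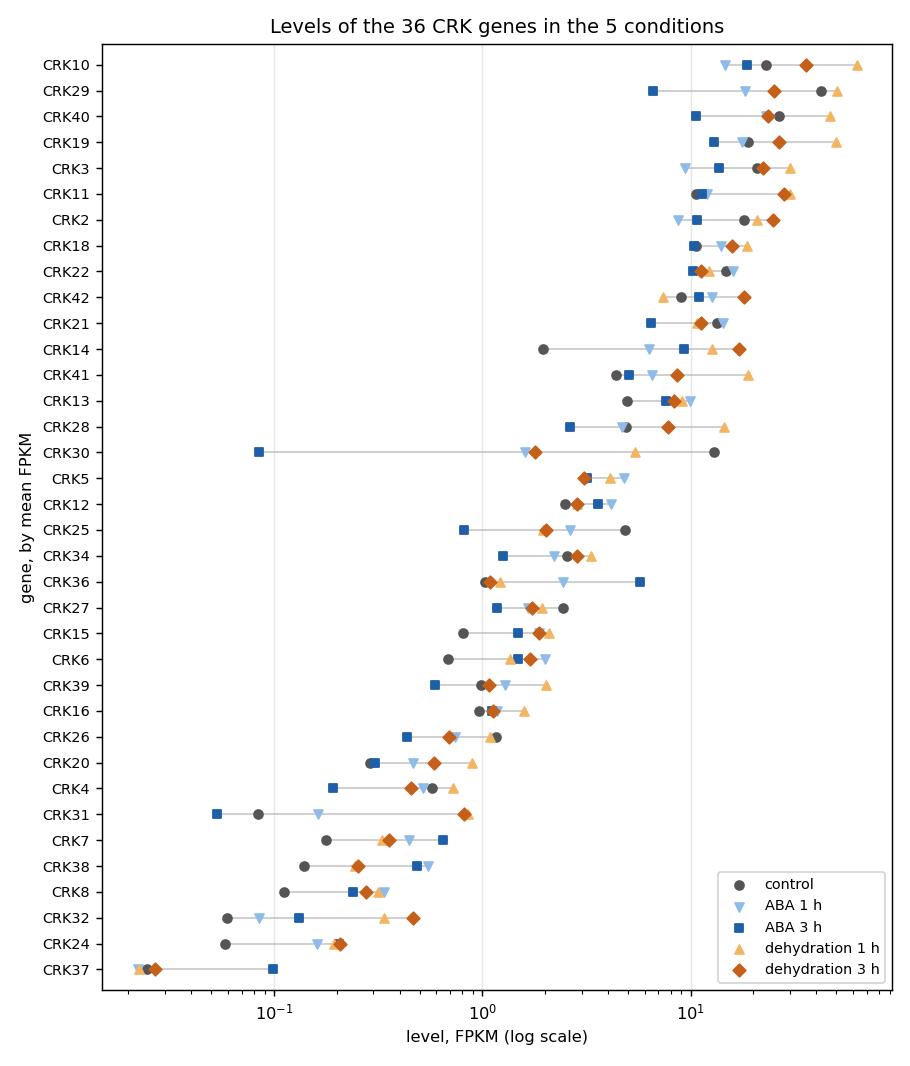
FPKM of each CRK gene (log scale) in the 5 columns, genes ordered by mean FPKM, 1 point per column with no replicates to show. CRK30 has the widest span, from 12.9 FPKM in the control to 0.0843 after ABA 3 h, and CRK5, CRK22, CRK16 and CRK12 have the narrowest.

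Dehydration for 1 h gave the most genes above the control. Of the 27 measured CRKs, 9 were at least 2-fold higher and 2 were at least 2-fold lower, that is 33.3% and 7.41%, beside 7.73% and 5.62% of all measured genes in the same directions. Their median log2 ratio was 0.54, and that of all measured genes was within 0.03 of 0. The 9 were CRK14, CRK41, CRK28, CRK11, CRK10, CRK19, CRK15, CRK39 and CRK6, and the 2 lower genes were CRK25 and CRK30. With no limit on the level, 14 of 36 were higher and 2 lower, beside 10.3% and 6.58% of all genes. Among the 13 measured CRKs that overlap no gene and share no read-length stretch with another gene, a set drawn up after the data were seen, 3 were higher and 1 lower, with a median of 0.25.

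Several of the abundant family members were in this group. CRK10, of which a gain-of-function allele is known to dwarf the plant, was at 23 FPKM in the control, 14.6 with 1 h of ABA, 18.6 with 3 h of ABA, 62.5 with 1 h of dehydration and 35.9 with 3 h of dehydration. Both dehydration columns were above the control and both ABA columns below it. The log2 ratio to the control was 1.48 (1.44 to 1.51) after dehydration 1 h, a 2.78-fold higher level, and -0.65 (-0.70 to -0.60) after ABA 1 h. CRK19, known to start a cell death like the hypersensitive response when its expression is induced, was at 18.8, 17.6, 13, 49.7 and 26.5 FPKM in the control, after ABA 1 h and 3 h and after dehydration 1 h and 3 h, in that order. It was 2.7-fold above the control after dehydration 1 h and less than 2-fold away from it in the other columns.

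CRK11, also named RLK3 and known as a gene that pathogens and oxidative stress induce, was at 10.6 FPKM in the control, 12 and 11.3 after 1 h and 3 h of ABA, and 30 and 28 after 1 h and 3 h of dehydration. Unlike CRK10 and CRK19, it stayed near its 1 h level at 3 h of dehydration, with log2 ratios of 1.53 (1.48 to 1.58) and 1.41 (1.36 to 1.46) to the control. CRK10 and CRK11 lie on opposite strands and overlap in the RefSeq annotation of TAIR10.1. The sources used here do not give the strand setting of the count, so reads of the overlap could have been given to either gene.

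CRK28, which associates with the co-receptor BAK1 and raises resistance to bacteria when overexpressed, was at 4.9 FPKM in the control, 4.66 with 1 h of ABA, 2.64 with 3 h of ABA, 14.4 with 1 h of dehydration and 7.79 with 3 h of dehydration. The dehydration columns were the 2 highest and ABA 3 h was the lowest. Its log2 ratio to the control was 1.57 (1.49 to 1.65) after dehydration 1 h. CRK41, reported to act in the response to salt, was at 4.38, 6.53, 5.03, 18.8 and 8.61 FPKM in the same order of columns, and all 4 treated columns were above the control. The ratio of CRK41 was 4.34-fold after dehydration 1 h and 1.99-fold, just inside the 2-fold limit, after dehydration 3 h.

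CRK14 had the largest ratio among measured CRKs in both dehydration columns. It was at 1.95 FPKM in the control, 6.28 with 1 h of ABA, 9.26 with 3 h of ABA, 12.6 with 1 h of dehydration and 17 with 3 h of dehydration. The 4 treated columns were all above the control, with log2 ratios of 1.69 (1.57 to 1.81), 2.23 (2.12 to 2.34), 2.73 (2.62 to 2.84) and 3.13 (3.03 to 3.24). CRK14 and CRK6 were the only measured CRKs past 2-fold above the control in all 4 columns, and CRK8 and CRK24 were so below the limit on the level. CRK6, whose loss is known to make plants more sensitive to oxidative stress outside the cell, was at 0.683 FPKM in the control, 1.99 and 1.49 after 1 h and 3 h of ABA, and 1.35 and 1.7 after 1 h and 3 h of dehydration. CRK15 was at 0.81 FPKM in the control, 1.86 and 1.49 after ABA, and 2.08 and 1.86 after dehydration, and only its ABA 3 h column was within 2-fold of the control. CRK24 was at 0.0579 FPKM in the control, 0.16 and 0.204 after ABA, and 0.194 and 0.207 after dehydration, from 12 reads in the control and 32 to 47 in the treated columns.

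Dehydration for 3 h left fewer measured CRKs apart from the control. At that time 5 of 27 were higher (CRK14, CRK11, CRK6, CRK15 and CRK42) and 2 were lower (CRK30 and CRK25), 18.5% and 7.41% beside 10.5% and 6.49% of all measured genes. Their median log2 ratio was 0.24. Over all 36 genes, 11 were higher and 2 lower, beside 13.7% and 7.68% of all genes with no limit on the level. CRK42 was apart from the control in this column alone, at 18 FPKM against 8.96 in the control, 12.7 and 10.9 after ABA and 7.38 after dehydration 1 h. Its log2 ratio to the control, 1.03 (0.97 to 1.09), lay at the limit, and CRK42 overlaps a gene on the other strand.

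Low-level genes added the largest dehydration ratios of the family. CRK31 was at 0.0837 FPKM in the control (29 reads), 0.162 with 1 h of ABA, 0.0534 with 3 h of ABA (20 reads), 0.85 with 1 h of dehydration (322 reads) and 0.816 with 3 h of dehydration (287 reads). Only the dehydration columns stood apart, with log2 ratios of 3.37 (2.82 to 3.98) and 3.30 (2.74 to 3.90) to the control. CRK32, its neighbour, was at 0.0597 FPKM in the control (20 reads), 0.0844 and 0.131 after 1 h and 3 h of ABA, and 0.337 and 0.464 after 1 h and 3 h of dehydration (123 and 159 reads), and the dehydration columns were 5.74-fold and 7.89-fold above the control. CRK20, whose loss is known to limit growth of Pseudomonas in the leaf, was at 0.29 FPKM in the control, 0.466 and 0.304 after ABA, and 0.89 and 0.583 after dehydration. Its ratios to the control were 3.13-fold after dehydration 1 h and 2.01-fold after 3 h.

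ABA for 1 h divided the family. Of the measured CRKs, 4 were higher (CRK14, CRK6, CRK36 and CRK15) and 4 lower (CRK30, CRK29, CRK3 and CRK2), 14.8% each beside 4.54% and 5.13% of all measured genes, and their median log2 ratio was 0.13. CRK13 lay just under the limit on the higher side at 1.00, and CRK2 just past it on the lower side at -1.01. Over all 36 genes the count was 8 higher and 4 lower, beside 5.96% and 6.32%.

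After ABA 3 h the balance lay on the lower side. There 3 measured CRKs were higher (CRK36, CRK14 and CRK6) and 8 lower (CRK30, CRK29, CRK25, CRK26, CRK40, CRK21, CRK34 and CRK27), 11.1% and 29.6% beside 9.12% and 7.79% of all measured genes. The median log2 ratio of the 27 was -0.53. This balance depended on the limit on the level, since over all 36 genes 9 were higher and 9 lower, beside 10.4% and 10.1% of all genes, with a median of 0.00. The genes that this adds on the higher side were CRK7, CRK8, CRK24, CRK32, CRK37 and CRK38, and on the lower side CRK4.

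CRK30 had the largest difference of any CRK in any comparison with the control. Its level was 12.9 FPKM in the control (4384 reads), 1.6 with 1 h of ABA (516 reads), 0.0843 with 3 h of ABA (31 reads), 5.43 with 1 h of dehydration (2006 reads) and 1.78 with 3 h of dehydration (618 reads). Each treated column was below the control, and each 3 h column was below the 1 h column of its treatment. The log2 ratios to the control were -3.00 (-3.13 to -2.87) and -7.27 (-7.83 to -6.77) after 1 h and 3 h of ABA, and -1.23 (-1.30 to -1.15) and -2.84 (-2.96 to -2.72) after 1 h and 3 h of dehydration. At 3 h of ABA the level was 155-fold lower than in the control. No role is given here for CRK30, and CRK25 was the other gene lower after dehydration at both times. CRK25 was at 4.83 FPKM in the control, 2.62 and 0.82 after 1 h and 3 h of ABA, and 1.96 and 2.02 after 1 h and 3 h of dehydration.

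CRK29, a close neighbour of CRK28, was the most abundant CRK of untreated seedlings. It was at 42.3 FPKM in the control, 18.2 with 1 h of ABA, 6.62 with 3 h of ABA, 50.6 with 1 h of dehydration and 25.2 with 3 h of dehydration. The ABA columns were the 2 lowest, with log2 ratios to the control of -1.17 (-1.22 to -1.13) and -2.65 (-2.71 to -2.59), and both dehydration columns were within 2-fold of the control. CRK40 was at 26.5, 22.9, 10.6, 46.8 and 23.6 FPKM in the control, after 1 h and 3 h of ABA and after 1 h and 3 h of dehydration, and ABA 3 h was again the lowest column, 2.47-fold below the control. CRK26 was at 1.16 FPKM in the control, 0.741 and 0.434 after ABA, and 1.09 and 0.688 after dehydration. CRK27 was at 2.43 FPKM in the control, 1.66 and 1.17 after ABA, and 1.94 and 1.73 after dehydration. In both genes the control was the highest column and ABA 3 h the lowest, 2.65-fold and 2.03-fold below it.

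CRK2, which is known to act with the NADPH oxidase RBOHD and in callose deposition at plasmodesmata under salt, was at 18.1 FPKM in the control, 8.68 and 10.7 after 1 h and 3 h of ABA, and 20.8 and 24.7 after 1 h and 3 h of dehydration. Its tandem neighbour CRK3 was at 20.7, 9.36, 13.7, 29.8 and 22.2 FPKM in the same order. In both genes the ABA columns were the 2 lowest, ABA 1 h was the lower of them, and both dehydration columns were above the control. The log2 ratios at 1 h of ABA were -1.01 (-1.07 to -0.94) for CRK2 and -1.10 (-1.17 to -1.04) for CRK3.

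CRK36 was the measured CRK with the largest ratio on the higher side after ABA 3 h. Its loss is known to make seedlings more sensitive to ABA, and it acts there with the kinase ARCK1. CRK36 was at 1.03 FPKM in the control, 2.45 with 1 h of ABA, 5.72 with 3 h of ABA, 1.21 with 1 h of dehydration and 1.09 with 3 h of dehydration. Only the ABA columns stood apart, with log2 ratios to the control of 1.30 (1.11 to 1.49) and 2.50 (2.33 to 2.67), against 0.25 and 0.11 for dehydration. ARCK1, also named CRK45 and outside the annotation rule because its row is described as a protein kinase only, was at 2.58 FPKM in the control, 10.4 and 24.6 after ABA, and 13.5 and 34 after dehydration. It was thus at least 4.15-fold above the control in all 4 columns.

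Other members with known roles lay nearer to the control or at lower levels. CRK5, whose overexpression is known to raise ABA sensitivity and drought tolerance, was at 3.1, 4.8, 3.18, 4.09 and 3.09 FPKM in the control, after 1 h and 3 h of ABA and after 1 h and 3 h of dehydration, and no column was 2-fold from the control. CRK13, whose overexpression raises salicylate-dependent resistance, was at 4.96, 9.89, 7.62, 9.12 and 8.33 FPKM, all treated columns above the control and none past 2-fold. CRK12, CRK16, CRK18 and CRK22 were also within 2-fold of the control in all 4 columns. CRK12 was at 2.48 FPKM in the control, 4.12 and 3.57 after ABA, and 2.86 at both dehydration times, and CRK16 at 0.959, 1.18 and 1.11, and 1.58 and 1.12. CRK7, known like CRK6 for the response to oxidative stress outside the cell, was at 0.178 FPKM in the control, 0.446 and 0.65 after ABA, and 0.331 and 0.358 after dehydration, and it was past 2-fold after both ABA times and after dehydration 3 h. CRK4, which starts cell death when its expression is induced, was at 0.573, 0.521, 0.191, 0.721 and 0.455 FPKM, and only ABA 3 h lay 2-fold away, 3.02-fold below the control.

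**Figure D3:**
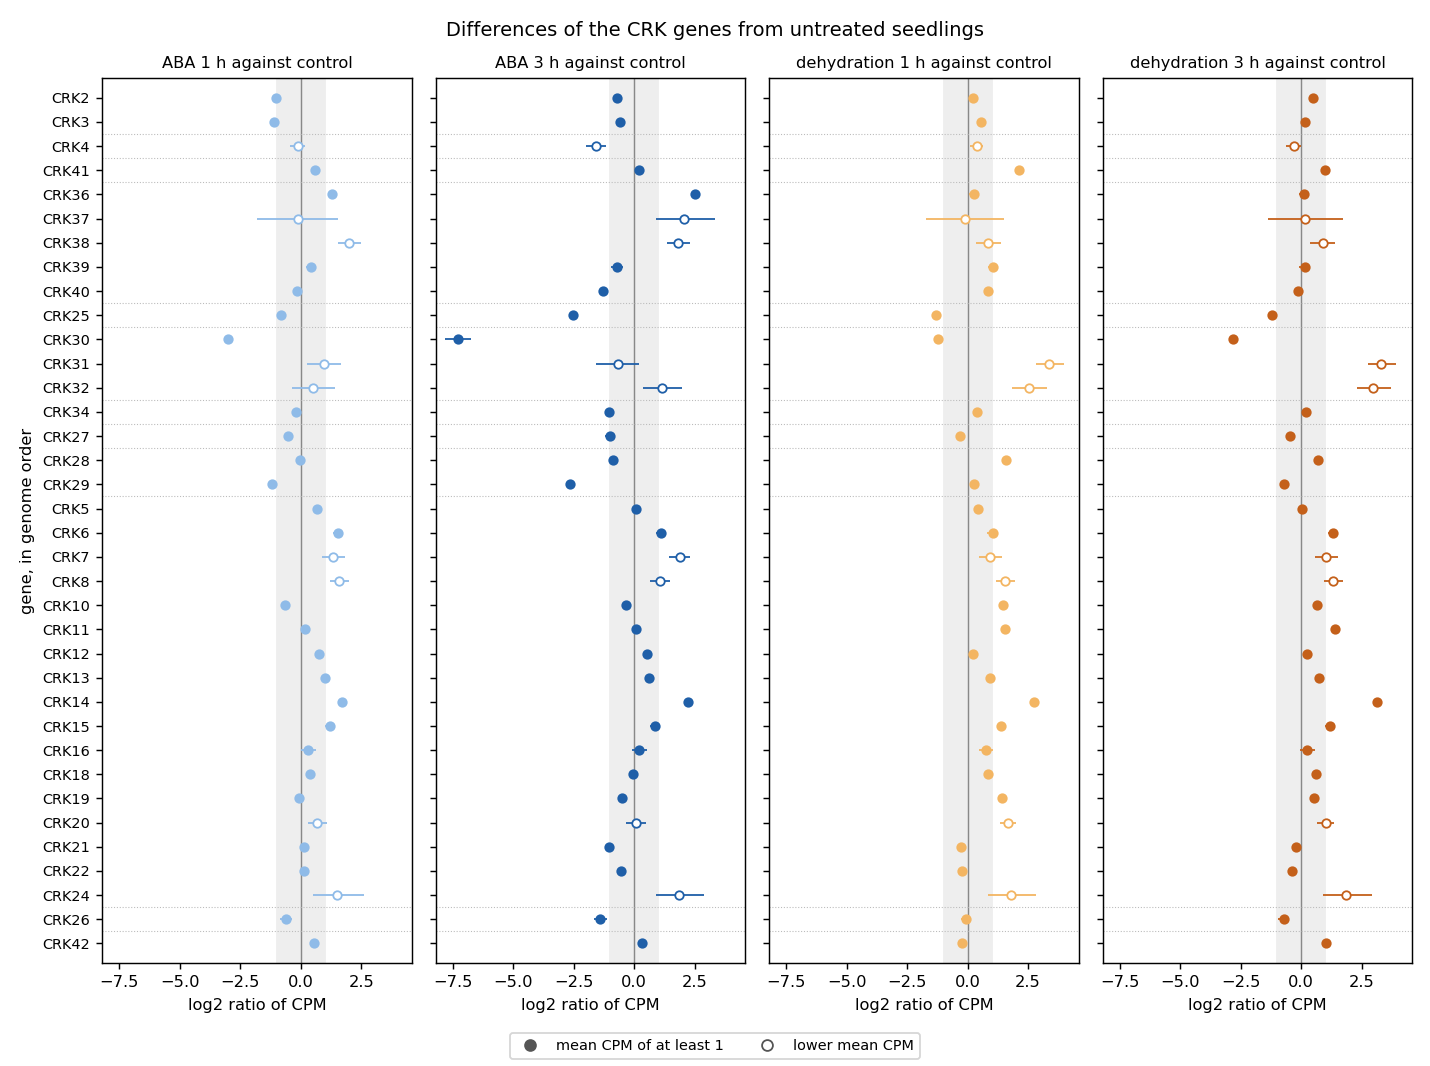
log2 ratio of CPM to the control for each of the 36 CRK genes in genome order, 1 panel per treated column, with exact 95% counting intervals as bars, the 2-fold band in grey and dotted lines between tandem arrays. CRK30 lies farthest to the left at 3 h of ABA (-7.27), and CRK14 lies to the right of the band in all 4 panels.

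The times within a treatment were compared next, which uses no control column. From 1 h to 3 h of ABA, 1 measured CRK was higher (CRK36) and 6 were lower (CRK30, CRK25, CRK29, CRK21, CRK39 and CRK40), 3.7% and 22.2% beside 4.92% and 2.39% of all measured genes, with a median log2 ratio of -0.43. CRK21 was at 14.3 FPKM after 1 h of ABA and 6.44 after 3 h, beside 13.3 in the control and 10.7 and 11.2 after dehydration, so ABA 3 h was its single low column. Over all 36 CRKs, 2 were higher and 8 lower from 1 h to 3 h of ABA, beside 5.87% and 4.38% of all genes. CRK39 was at 1.29 FPKM after 1 h of ABA and 0.591 after 3 h, and at 2.01 and 1.07 after 1 h and 3 h of dehydration, beside 0.986 in the control.

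From 1 h to 3 h of dehydration, 1 measured CRK was higher (CRK42, log2 ratio 1.28) and 2 were lower (CRK30 at -1.61 and CRK41 at -1.13), 3.7% and 7.41% beside 5.34% and 1.48% of all measured genes, and the median was -0.20. CRK29 and CRK40 lay just inside the limit at -0.99 and -0.98, and with total-count scaling the lower genes numbered 6. With no limit on the level, 1 of 36 was higher and 2 were lower, beside 7.07% and 2.31% of all genes. Of all 36 CRKs, 21 had negative time ratios in both treatments and 6 positive ones in both. Taken alone, 27 of the 36 were negative in ABA and 24 in dehydration. Of all genes with no limit on the level, 49.4% had positive time ratios in ABA and 49.6% in dehydration. Their joint signs were not counted. CRK3, CRK10 and CRK36 were positive in ABA and negative in dehydration, and CRK6, CRK12, CRK21, CRK25, CRK38 and CRK42 the reverse. Ratios near 0 depended on the scaling. With total-count scaling the dehydration sign of CRK7, CRK12, CRK21, CRK24, CRK25 and CRK38 turned to negative, which left 4 of 36 positive and 25 negative in both treatments, and with upper-quartile scaling that of CRK12 turned.

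**Figure D4:**
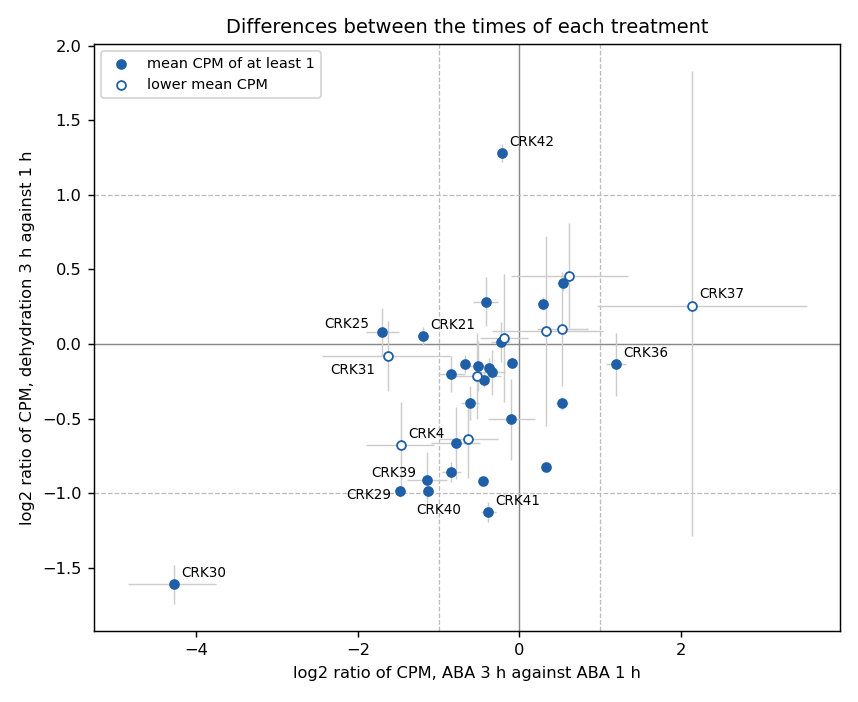
log2 ratio of CPM between 3 h and 1 h of ABA (x axis) and between 3 h and 1 h of dehydration (y axis) for the 36 CRK genes, with exact 95% counting intervals as bars and dashed lines at 2-fold. CRK30 is far to the lower left (-4.28 and -1.61), CRK36 is past 2-fold on the x axis alone, and CRK42 is past 2-fold on the y axis alone.

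Set directly against ABA at the same time, dehydration stood higher for many CRKs. At 1 h, 11 of 27 were higher after dehydration and 1 was lower (CRK36), 40.7% and 3.7% beside 5.4% and 3.5% of all measured genes, and the median log2 ratio was 0.55. The 4 highest were CRK10 at 2.13 (2.09 to 2.18), CRK30 at 1.77 (1.63 to 1.91), CRK3 at 1.64 (1.58 to 1.70) and CRK28 at 1.60 (1.51 to 1.68). CRK10 was thus 4.38-fold higher after dehydration than after ABA. The 4 lowest were CRK36, CRK42, CRK12 and CRK6, with CRK36 at -1.05 (-1.23 to -0.87).

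At 3 h, 9 of 27 were higher after dehydration and 1 was lower, CRK36 again, 33.3% and 3.7% beside 9.15% and 6.82% of all measured genes, and the median was 0.78. The highest were CRK30 at 4.44 (3.92 to 5.01), CRK29 at 1.94 (1.88 to 2.0), CRK28 at 1.58 (1.47 to 1.68), and CRK11 and CRK25, both at 1.31. CRK36 was 5.23-fold lower after dehydration than after ABA. Above 0 were 24 of the 27 ratios, beside 48.1% of those of all measured genes. With no limit on the level, 13 of 36 were higher and 2 lower at 1 h, beside 8.16% and 4.41% of all genes, and 12 were higher and 2 lower at 3 h, beside 13.4% and 7.9%.

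A less strict limit of 1.5-fold was also counted for the 27 measured CRKs, with the shares of all measured genes in brackets. Against the control, 8 were higher and 7 lower after ABA 1 h (10.4% and 11.3% of all measured genes), and 5 and 11 after ABA 3 h (17.5% and 15.8%). Dehydration had 13 higher and 2 lower at 1 h (15.6% and 13.2%), and 10 and 4 at 3 h (17.9% and 14.7%). Between times, ABA had 1 higher and 11 lower at 3 h (10.7% and 6.8%), and dehydration 1 and 9 (11.2% and 7.77%). Dehydration against ABA had 13 higher and 2 lower at 1 h (10.9% and 8.25%), and 18 and 1 at 3 h (16.2% and 15%). The fullest of these was the higher side of dehydration against ABA at 3 h, with 18 of 27 CRKs. The 5 higher after ABA 3 h, 18.5%, and the 4 lower after dehydration 3 h, 14.8%, lie near the shares of all measured genes. So do the 2 lower for dehydration against ABA at 1 h, 7.41%.

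Most CRKs lie side by side in the genome. In the gene order of TAIR10.1, with at most 1 other protein-coding gene between neighbours, 29 of the 36 members fell into 5 tandem arrays and 7 stood alone. The largest array, on chromosome 4, held 17 members from CRK5 to CRK24. In it 15 of 17 genes were above the control after dehydration at either time, 15 after 1 h of ABA and 12 after 3 h. Of all genes with no limit on the level, 49.8% to 51.7% were above the control in these columns. The median log2 ratios of these 17 were 1.03 and 0.75 after 1 h and 3 h of dehydration and 0.69 and 0.22 after ABA, beside 0.36 and 0.14, and -0.12 and -0.72, for the other 19 CRKs. None of the 17 was 2-fold lower than the control after ABA 1 h or after either dehydration time, and CRK21 was the 1 that was after ABA 3 h. Over all genes 6.32% and 10.1% were lower after 1 h and 3 h of ABA and 6.58% and 7.68% after dehydration, and counts of 0 or 1 among 17 lie near these shares. CRK9 and CRK17, which lie inside the array but carry another annotation, were higher by log2 ratios of 1.38 and 0.99 after dehydration 1 h and 0.90 and 0.29 after ABA 1 h.

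Neighbours did not always go the same way. In the array of CRK30, CRK31 and CRK32, CRK30 was below the control in every treated column, whereas CRK31 and CRK32 were more than 5-fold above it after dehydration at both times. In the array of CRK36 to CRK40, CRK36, CRK37 and CRK38 were higher after ABA 3 h by log2 ratios of 2.50, 2.04 and 1.81, and CRK39 and CRK40 were at -0.72 and -1.31. CRK37 was at 0.0245 FPKM in the control (8 reads), 0.0223 and 0.0992 after 1 h and 3 h of ABA (7 and 36 reads), and 0.0225 and 0.0269 after dehydration (8 and 9 reads). ABA 3 h was its single high column, with a wide interval of 0.91 to 3.36. CRK28 and CRK29 stood at 1.57 and 0.28 after dehydration 1 h, and at -0.87 and -2.65 after ABA 3 h.

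Close copies and overlaps limit how far reads can be given to single CRKs. In TAIR10.1, 10 members shared stretches of the read length, 100 bases, with another gene, and in 7 of them over 5% of all such stretches were shared. The highest share was 24.9%, for CRK16 with the gene of CRK17, followed by 13.8% of CRK6 with CRK8, and by 12.1% of CRK29 and 10.5% of CRK28 with each other. CRK16, CRK28 and CRK29 overlap another gene on the same strand, and CRK10, CRK11, CRK19, CRK25 and CRK42 overlap one on the other strand. The values of these genes are uncertain where reads could have been split.

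Promoters were searched for 3 short motifs on both strands, from 250 bases before to 50 bases after each gene start in TAIR10.1. The W-box core TTGAC, the letters that WRKY factors are known to bind, was in 27 of 36 CRK promoters, 75.0%, beside 50.5% of 27443 promoters. The core ACGTG, found in elements of ABA-responsive genes, was in 12, 33.3% beside 26.7%. The core CCGAC of the dehydration-responsive element was in 1, that of CRK34, 2.78% beside 15%. CRK11 held TTGAC 7 times, and CRK31 and CRK41 4 times each. CRK41 also held ACGTG 6 times, and CRK13, CRK16 and CRK31 held ACGTG 2 times each. CRK30 and CRK28 held none of TTGAC in this window, and CRK14 held it 2 times. A match of letters is a description of the sequence only.

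Other receptor kinase families were counted in the same way. After dehydration 1 h, 24 of 124 measured leucine-rich repeat kinases were higher and 1 lower (19.4% and 0.806%), 21 of 58 lectin kinases were higher and 1 lower (36.2% and 1.72%), and 3 of 14 wall-associated kinases were higher and 0 lower (21.4% and 0%). All measured genes had 7.73% higher and 5.62% lower there. Their medians were 0.10, 0.62 and 0.78, beside 0.54 for the CRKs. After ABA 3 h the leucine-rich repeat kinases had 2 higher and 15 lower (1.61% and 12.1%). The lectin kinases had 4 and 6 (6.9% and 10.3%), and the wall-associated kinases 2 and 1 (14.3% and 7.14%). All measured genes had 9.12% and 7.79%, and the lectin and wall-associated counts lie near these shares. The medians of the 3 families were -0.05, 0.15 and 0.42 beside -0.53 for the CRKs. Dehydration 1 h against ABA 1 h had 9.68%, 27.6% and 35.7% of the 3 families higher, and 1.61%, 1.72% and 0% lower. Dehydration 3 h against ABA 3 h had 16.9%, 27.6% and 28.6% higher, and 2.42%, 1.72% and 14.3% lower. The CRKs had 40.7% and 33.3% higher, and 3.7% lower at both times. All measured genes had 5.4% and 9.15% higher, and 3.5% and 6.82% lower. Whether the families differ was not tested.

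**Figure D5:**
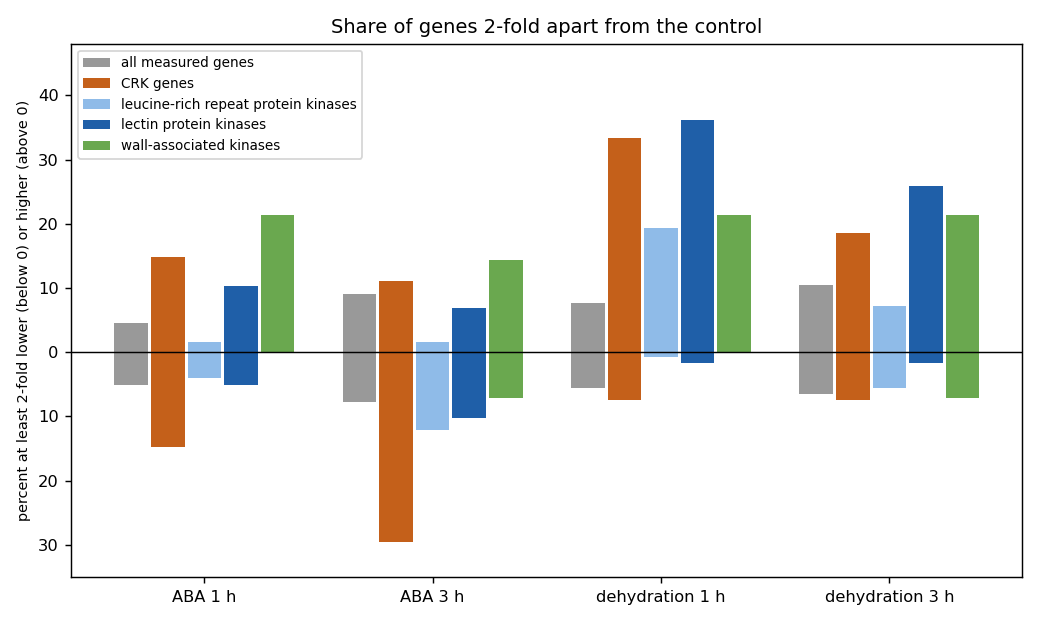
Percent of measured genes at least 2-fold higher (bars above 0) or lower (bars below 0) than the control in each treated column, for the CRKs, 3 other receptor kinase families and all measured genes, with no error bars. After dehydration 1 h the CRKs (33.3%) and the lectin kinases (36.2%) are the highest bars.

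Partners of CRKs and pathways around them were described from short gene lists. For all counts of this kind, the shares of all measured genes higher and lower than the control were 4.54% and 5.13% after ABA 1 h, 9.12% and 7.79% after ABA 3 h, 7.73% and 5.62% after dehydration 1 h, and 10.5% and 6.49% after dehydration 3 h. Of 13 immune kinases and CRK partners, 8 were higher and 0 lower than the control after 1 h of dehydration, and again 8 and 0 after 3 h. The 8 are 61.5%, beside 7.73% and 10.5% of all measured genes. They were not the same genes at both times. LYK5 and SOBIR1 passed the limit at 1 h alone, and BIK1 and RPK1 at 3 h alone. ARCK1, itself named a CRK, was among the 8 at both times. After ABA 1 h the counts were 1 and 0 and after ABA 3 h 2 and 1, which lie near the background (7.69% beside 4.54% higher, then 15.4% and 7.69% beside 9.12% and 7.79%). BAK1 itself was at log2 ratios of 0.74 and 0.53 after 1 h and 3 h of dehydration, its close relative BKK1 at 2.19 and 1.40, and PEPR2, a receptor of the danger peptides Pep, at 2.51 and 2.55. BIK1, a cytoplasmic kinase downstream of immune receptors, was at -1.05 after ABA 3 h and 1.10 after dehydration 3 h. Of 8 NADPH oxidases in the table, 2 were lower and 0 higher after 1 h of ABA, and 4 lower and 2 higher after 3 h. These are 25% lower beside 5.13%, and 50% lower and 25% higher beside 7.79% and 9.12%. Dehydration for 1 h had 0 in either direction, and dehydration for 3 h had 1 in each, 12.5% beside 10.5% and 6.49%. RBOHD, the oxidase that CRK2 is known to act on, was at -1.17 and -1.72 after 1 h and 3 h of ABA and at 0.42 and 0.36 after dehydration.

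Of 11 WRKY factors, 6 were lower and 1 higher than the control after 1 h of ABA and 3 lower and 1 higher after 3 h. Dehydration for 1 h had 4 of them higher and 2 lower, and dehydration for 3 h 5 higher and 2 lower. The 6 lower are 54.5% beside 5.13% of all measured genes, and the 5 higher 45.5% beside 10.5%, whereas the 1 higher after 3 h of ABA, 9.09%, lies at the background of 9.12%. WRKY22, lower in all 4 columns, was at -3.41 after ABA 3 h, WRKY6 was higher in all 4 and at 2.0 after dehydration 1 h, and WRKY18 was at -1.40 after ABA 1 h and 3.50 after dehydration 3 h. Of 15 measured genes of salicylate synthesis and response, 1 and 3 were higher after 1 h and 3 h of ABA and 3 and 2 after 1 h and 3 h of dehydration, and 0 and 0, then 1 and 1, were lower. The counts after ABA 1 h (6.67% beside 4.54%) and after dehydration 3 h (13.3% beside 10.5%), and those of lower genes (6.67% beside 5.62% and 6.49%), lie near the background. PBS3, which acts in salicylate synthesis, was at 2.45 after ABA 3 h, EDS5, a transporter of the same pathway, was at 2.03 after dehydration 1 h, and NPR4, a salicylate receptor, was at -1.22 after dehydration 3 h. Of 7 measured plasmodesmata-located proteins, which carry DUF26 domains but no kinase, 0 were higher in any column, 2 and 1 were lower after 1 h and 3 h of ABA, and 0 and 2 after dehydration, beside 5.13% and 7.79%, and 5.62% and 6.49%, of all measured genes. With 7 genes, counts of 0 or 1 lie near these shares. PDLP3, the lowest against the control of the measured 7 in each column, was at -1.10 and -1.83 after 1 h and 3 h of ABA and at -0.84 and -1.37 after dehydration.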

How the data were processed

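Per the labels' protocols, stranded polyadenylated RNA libraries were made from whole seedlings and read in single 100-base reads. The build TAIR10 and the tools Cuffdiff, Cufflinks 2.1.1, DESeq2 and TopHat2 2.0.8 are named in the submitters' processing notes. The sources used here do not give their roles, the counter and its strand setting, or how replicates were merged. Read counts per gene, unnormalized, and FPKM per gene were deposited by the authors, with 1 column for each condition, so the planned edgeR tests per replicate were not possible.

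CPM used TMM factors from edgeR 4.0.16 (R 4.3.3) on the 22186 rows passing filterByExpr. TMM on all rows was used first, and the rows were chosen after both results were seen. Ratios used a floor of 3 reads, and genes at or under it in both columns had no ratio, which touched no CRK (7 to 25090 reads per column). Counting intervals are exact Clopper-Pearson at 95% (SciPy 1.17.1) and ignore variation between replicates. In 1 cell a count of 0 stood beside an FPKM above 1, and it was taken as missing. The calculation of ratios and intervals was run on counts simulated with counting error alone, so it says nothing of variation between replicates.

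The CRKs, the 9 gene lists (82 of 85 genes in the table, the others not analysed here) and the other families were chosen with earlier results of these data known. Per-column values are given for CRKs with a role in the literature, for the 4 highest and 4 lowest measured ratios of each comparison and for the 3 highest and 3 lowest mean levels, and the others by counts and ranges. A few more are named because a count or a limit rests on them. All 36 CRKs matched RefSeq's TAIR10.1, which is not the authors' build and served for gene order, overlaps, shared stretches and motifs. No protein comparison was made. Alternatives were RLE (DESeq2 1.42.0), upper-quartile and total-count scaling, no limit and a mean of 5 CPM, log2 of FPKM with 1 or 0.1 added, and a 1.5-fold limit.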

Additional observations from a re-analysis of the deposited data

How the results depend on the processing

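No measured CRK that was 2-fold apart in a comparison took the opposite sign under another scaling or with FPKM. Scaling moved the median of all genes by at most 0.12, so such a turn could hardly occur. The 9 CRKs below the limit on the level were not in this check. RLE scaling and, added after seeing the data, TMM on all rows left each count within 1.5 times. With no limit on the level, over 36 CRKs, the higher counts against control were 8 (ABA 1 h), 9 (ABA 3 h), 14 (dehydration 1 h) and 11 (dehydration 3 h), that of ABA 3 h against 1 h was 2, and the lower counts of dehydration against ABA were 2 at 1 h and 2 at 3 h. At a mean of at least 5 CPM, over 18 CRKs, ABA 1 h had 1 higher, ABA 3 h 1 higher and 4 lower, dehydration 1 h 1 lower, dehydration 3 h 3 higher and 1 lower, ABA 3 h against 1 h 0 higher, and dehydration against ABA 0 lower at 1 h and 0 at 3 h. With log2 of FPKM plus 1 the counts were 1 higher for ABA 1 h, 4 lower for ABA 3 h, 1 lower for dehydration 1 h, 2 higher and 1 lower for dehydration 3 h, 0 higher for ABA 3 h against 1 h, and 0 lower for dehydration 1 h against ABA 1 h, which was also 0 with FPKM plus 0.1 and with total-count scaling. A 1.5-fold limit gave 8 higher and 7 lower for ABA 1 h, 5 higher for ABA 3 h, 10 higher and 4 lower for dehydration 3 h, 11 lower for ABA 3 h against 1 h, 9 lower for dehydration 3 h against 1 h, 2 lower for dehydration against ABA at 1 h and 18 higher at 3 h. Dehydration 3 h against 1 h had 4 lower with upper-quartile and 6 lower with total-count scaling, which moved the median of all genes by 0.12 for dehydration 1 h against control and by -0.10 for 3 h against 1 h in both treatments. The 13 measured CRKs free of overlaps and shared stretches, a set added after seeing the data, had 5 lower for ABA 3 h, 3 higher and 1 lower for dehydration 1 h, 2 higher and 1 lower for dehydration 3 h, 2 lower for ABA 3 h against 1 h, 0 higher for dehydration 3 h against 1 h, and 5 and 3 higher for dehydration against ABA at 1 h and 3 h. These last counts, and those at 5 CPM, come from fewer genes, and the cause of the other shifts was not tested. Shares of all genes were counted for the main setting, with no limit on the level and at 1.5-fold. They were not counted for the other scalings, 5 CPM, FPKM with 1 or 0.1 added, or genes free of overlaps. Counts under those settings therefore have no background beside them. The 5 tandem arrays stayed 5 with up to 5 genes between neighbours. No paired analysis was possible because each column combines its replicates, and for the same reason the replicate block and leaving out a replicate were not run. Depth limits the low CRKs, such as CRK37 with 7 to 36 reads a column, and the spread between replicates is unknown for all.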
